A study of Daphnia magna with 80 samples.

Results

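Young adult males of the water flea Daphnia magna, aged 15 and 18 days, were compared with males aged 8 and 10 days. All male libraries of these 4 ages were taken by the sex and age in their labels. They make 12 of the 76 libraries used, 3 at each age, after 3 others that the labels' notes mark as mislabelled and excluded were left out, so that 6 libraries of 15 and 18 days stood against 6 of 8 and 10 days. All animals were of strain Bham2, and the series as a whole followed genetically identical females and males with age. They were held in high hardness COMBO medium under a long-day light cycle and fed the green alga Chlorella vulgaris, with no experimental treatment. Whole animals were flash frozen with an empty brood pouch, a criterion that females show, and the moult stage of the males is not given. The third library of the 10-day males was sequenced in 2 technical runs, which were summed. How many animals a library held, and whether replicates are independent cultures, is not stated. A p-value therefore speaks of the spread among these libraries, part of which may be technical. Further groups used for comparison were 6 libraries of females of 10 and 15 days, 25 of males of 20 to 40 days and 13 of females of 20 to 40 days, all of the same strain and culture.

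Daphnia mothers produce daughters and, when conditions or a juvenoid hormone signal call for it, sons from the same genome. Sex is therefore set by the environment acting through the doublesex pathway, and all sex differences in such a clone are differences in gene use. Males are smaller than females, carry long first antennae and hooked first limbs used in mating, make sperm and have no brood pouch. Both sexes go on moulting as adults.

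The 12 male libraries held 8974138 to 33480868 gene counts, and their log2 CPM (read counts scaled to a common library size) correlated at 0.83 to 0.973 with each other. Gene IDs carry no names in the files, and 0 of them matched the reference table, so genes are given by ID and no function is assigned. A block of 7 very abundant genes, led by APZ42_024615, took 1.12% to 47.4% of gene counts in males of 15 and 18 days (median 8.19%) and 7.18% to 75.4% in males of 8 and 10 days (median 21.9%). The mean log2 share differed by -1.69, with ranges that overlapped (exact 2-sided permutation test, p = 0.0974, n = 6 each). Synthetic spike-in RNAs took 0.566% to 1.72% of counts at 15 and 18 days and 0.217% to 1.53% at 8 and 10 days (exact permutation test, p = 0.323, n = 6 each). By the ratio of the spike-ins SIRV7 and SIRV1, 3 of the 6 libraries of 15 and 18 days and 0 of the 6 of 8 and 10 days fell in a cluster of high ratio. The second principal component of the 12 libraries, with 19.2% of the variance, followed age: 8-day libraries lay at -54.02 to -40.97, 10-day ones at -25.78 to 7.605 and those of 15 and 18 days at 8.056 to 91.08. On it 18-day replicate 3 stood apart at 91.08, with the next library at 22.91. The first component, with 27% of the variance, mixed the ages.

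**Figure D1:**
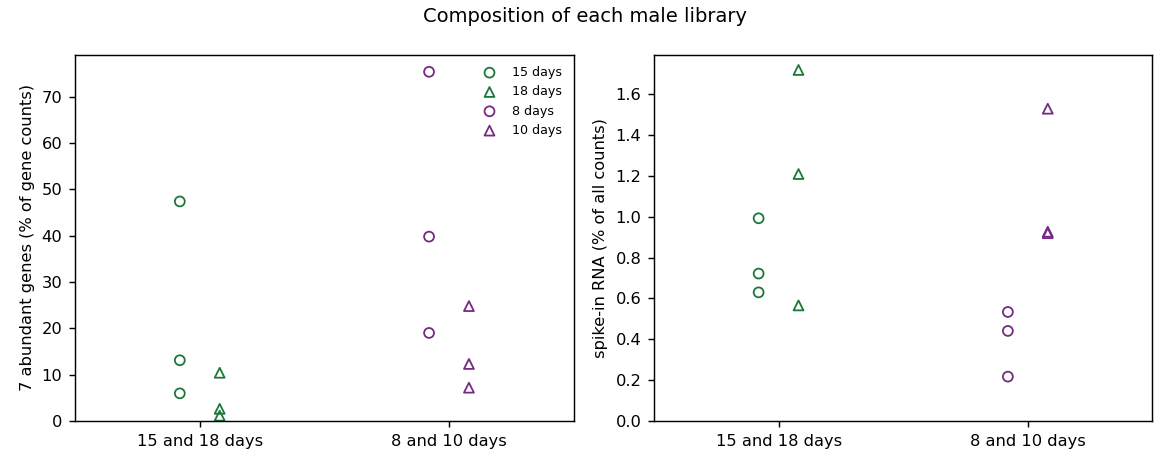
Share of gene counts in the 7 abundant genes (left, %) and share of all counts in spike-in RNA (right, %), 1 point per male library, with 15 and 18 days left of 8 and 10 days. The abundant genes reached 75.4% in an 8-day library and 47.4% in a 15-day library, and both measures overlap between the age groups.

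Between males of 15 and 18 days and males of 8 and 10 days, more genes fell than rose. Of 15737 genes tested, 43 rose (0.273%) and 207 fell (1.32%) at an adjusted p under 0.05 in edgeR's quasi-likelihood test with Benjamini-Hochberg adjustment. The changes were moderate, with a median of 1.03 on the log2 scale among the genes that rose and 1.01 among those that fell, and the largest were 2.76 up and 4.04 down. In 31 of the 43 and in 170 of the 207, no library of one age group overlapped with any of the other. Over all genes tested, 74 (0.47%) had every library of 15 and 18 days above every library of 8 and 10 days, and 345 (2.19%) had every one below.

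The directions are relative to the median gene, and the number of calls depended on the libraries and the scaling. When spike-in counts set the library sizes no gene was called, the median of all genes lay at -0.112, against 0.0396 with TMM sizes, and all 250 called genes kept their sign. The split was 242 up and 487 down in DESeq2, and the count was 7 when the fit carried the spike-in cluster as a term and 0 within the low-ratio cluster. Leaving out the libraries with over 30% of counts in the abundant genes, chosen after seeing the data, left 14 calls, all down. The calls numbered 120 without 10-day replicate 2, 73 and 62 without 15-day replicates 1 and 3, 134 and 90 without 18-day replicates 1 and 2, and 65, 59 and 95 without 8-day replicates 1, 2 and 3. Without 18-day replicate 3, the library that stood apart, 106 genes rose and 439 fell, 545 in all. The part of library composition in these counts was not tested beyond these fits.

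**Figure D2:**
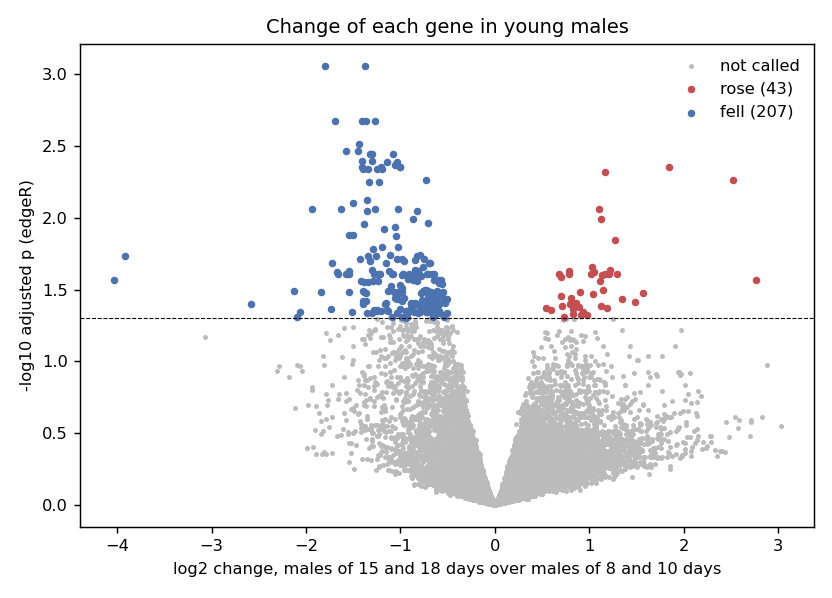
Change of each of the 15737 genes tested (x, log2 change of males of 15 and 18 days over males of 8 and 10 days) against its significance (y, -log10 of edgeR's adjusted p), with the dashed line at 0.05. The 207 genes that fell outnumber the 43 that rose, and the largest changes are 4.04 down and 2.76 up.

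Described in full are the 2 largest changes in each direction among called genes of at least 3 log2 CPM whose groups do not overlap.
APZ42_023264 had 40.4, 46.7 and 94.0 CPM (lowest, median and highest) in males of 15 and 18 days, and 1.90, 3.61 and 22.0 CPM in males of 8 and 10 days. The groups did not overlap, and the highest value was that of 18-day replicate 3. It rose by 2.76 ± 0.548 (log2 change ± SE, edgeR adjusted p = 0.0269), on means of 54.6 ± 20.2 CPM at 15 and 18 days and 8.04 ± 8.06 CPM at 8 and 10 days (SD, n = 6 each). Its 2 technical runs of the third 10-day library gave 24.4 and 5.84 CPM of their own totals. The 7 abundant genes took 0.696% of the counts of the first run and 40.6% of those of the second. The 24.8% of that library is therefore a sum of unlike runs. Other IDs did not all move alike between the runs: APZ42_021061 had 45.8 and 25.4 CPM, and APZ42_016145 had 52.2 and 58 CPM. Without the 7 abundant genes the log2 CPM of the 2 runs correlated at 0.954. The part of the abundant genes in the run difference was not tested. The call was lost when any 1 of 10-day replicate 2, 15-day replicates 1 and 3 or 8-day replicates 1, 2 and 3 was left out, with changes of 2.55 to 2.85. In later males APZ42_023264 did not keep its level, with 44.4 ± 2.24 CPM at 25 days (SD, n = 2). It had 12.3 ± 2.05 CPM at 28 days and 27.8 ± 5.60 CPM at 40 days (SD, n = 3 each). Its slope from 20 to 40 days was not called (-0.253 ± 0.18 per 10 days, edgeR adjusted p = 0.476).

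APZ42_025435 had 48.6, 76.1 and 108 CPM in males of 15 and 18 days, and 5.70, 9.79 and 25.0 CPM in males of 8 and 10 days. It rose by 2.52 ± 0.373 (edgeR adjusted p = 0.00542), a call lost in 5 of 29 refits, with no change of sign. Within the younger group the 10-day libraries had 24.7, 10.2 and 25.0 CPM and the 8-day libraries 5.70, 9.36 and 6.38 CPM, so the 10-day level was the higher, with 1 library close to the 8-day ones. It rose on in the older males, by 0.683 ± 0.077 per 10 days from 20 to 40 days (edgeR adjusted p = 9.24e-06), with 82.9 ± 5.40 CPM at 20 days (SD, n = 2) and 233 ± 16.0 CPM at 40 days (SD, n = 3).

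APZ42_028735 had the largest fall of the named IDs, with 6.18, 9.79 and 19.5 CPM in males of 15 and 18 days, and 22.2, 152 and 324 CPM in males of 8 and 10 days. The younger group was itself split, since the 10-day libraries had 35.4, 22.2 and 33.5 CPM and the 8-day libraries 268, 324 and 282 CPM. It fell by 3.92 ± 0.699 (edgeR adjusted p = 0.0185), and by 3.28 ± 0.361 at 10 against 8 days (edgeR adjusted p = 0.00195). Females of 10 and 15 days had the level of the 8-day males, with 295 ± 6.26 CPM at 15 days and 296 ± 35.9 CPM at 10 days (SD, n = 3 each). In females of 25 days the level was lower, at 94.9 ± 18.5 CPM (SD, n = 3). The fall in the pooled comparison missed the threshold in 6 of 29 refits, with no change of sign. Among these were the edgeR fits without 15-day replicate 1 (adjusted p = 0.052) and without the libraries rich in the abundant genes.

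APZ42_023969 was nearly limited to males, at 0.852 ± 0.271 CPM in females of 15 days and 0.886 ± 0.386 CPM in females of 10 days (SD, n = 3 each). In males it had 6.60, 8.13 and 10.2 CPM at 15 and 18 days, and 18.3, 30.1 and 36.8 CPM at 8 and 10 days. It fell by 1.80 ± 0.179 (edgeR adjusted p = 0.000874), and its levels at 10 days, 25.9 ± 9.67 CPM, and at 8 days, 31.4 ± 3.36 CPM (SD, n = 3 each), lay within their spread of each other. In later males it lay between 3.27 and 15.4 CPM. Its call in the pooled comparison was lost in 3 of 29 refits, with no change of sign.

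**Figure D3:**
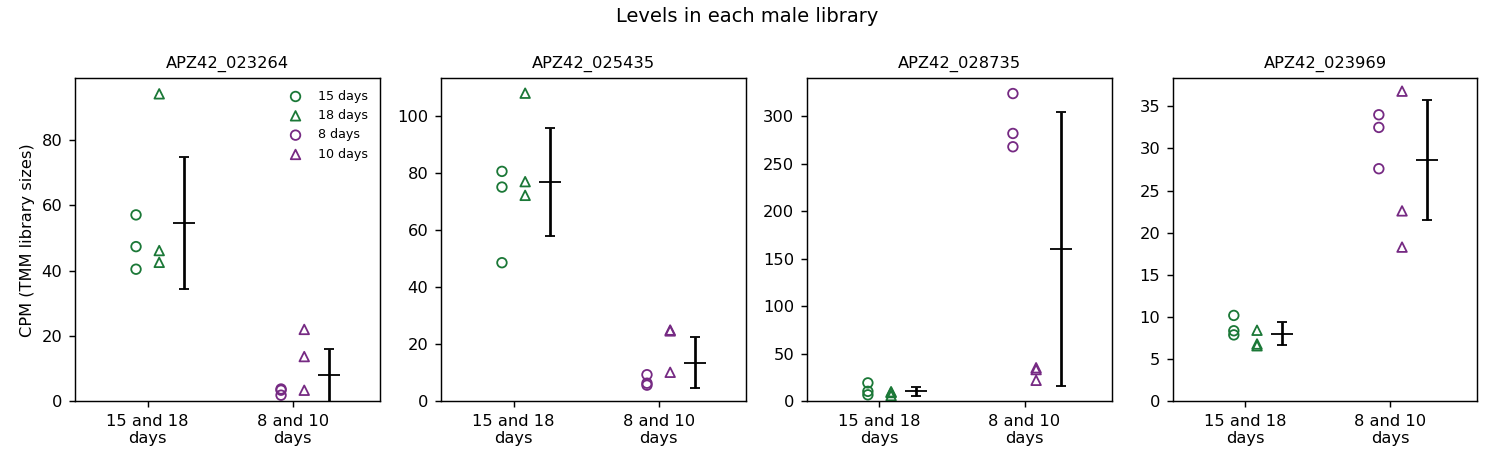
CPM of the 4 named IDs in each male library, with 15 (circles) and 18 days (triangles) left of 8 (circles) and 10 days (triangles), and the mean ± SD of each group of 6 as a bar. No group of 15 and 18 days overlaps with its group of 8 and 10 days, and APZ42_028735 at 8 days (268 to 324 CPM) lies far above 10 days (22.2 to 35.4 CPM).

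The 4 ages describe at which step the called genes changed, though the choice of genes bears on the answer. For 184 of the 207 genes that fell and 34 of the 43 that rose, the largest of the 3 steps between neighbouring ages was that from 10 to 15 days. The median step of the genes that fell was -0.226 from 8 to 10 days, -0.818 from 10 to 15 days and -0.152 from 15 to 18 days on the log2 CPM scale. For the genes that rose it was 0.487, 0.670 and 0.0686. These genes were chosen on the same libraries, so the steps are a description. The pooled test counts a difference between the 2 ages of a group as spread. It therefore favours genes whose main step lies from 10 to 15 days, and the steps cannot place the change of all genes. Of the 250 genes called in it and the 222 called at 10 against 8 days, 5 were called in both. The median level of the genes that fell was 4.45 ± 0.056 log2 CPM at 8 days, 4.29 ± 0.25 at 10 days, 3.40 ± 0.065 at 15 days and 3.31 ± 0.14 at 18 days (mean ± SD of 3 libraries). By the spike-ins, the step of the rising genes from 8 to 10 days changed sign, with a median of -0.245 where that of all genes was -0.817.

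Taken singly, neither of the later steps passed the threshold in edgeR for any gene. At 15 against 10 days 0 of 16941 genes (0%) passed edgeR's threshold, 842 had an unadjusted p under 0.05, and DESeq2 called 68, of which 61 were lower. Without 18-day replicate 3, which enters that fit only through the shared spread, edgeR called 13, all lower. At 18 against 15 days 0 genes (0%) passed, 961 had an unadjusted p under 0.05, and DESeq2 called 14.

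Among the genes called in the step from 8 to 10 days, nearly all rose. In it 213 of 16941 genes rose (1.26%) and 9 fell (0.0531%), while the median of all genes tested was -0.0242. This step shares its libraries with the pooled comparison. The genes that rose did so by a median of 1.86 on the log2 scale, 89 of them by at least 4-fold. Their median level stood at 3.47 ± 0.063 log2 CPM at 8 days, 5.31 ± 0.14 at 10 days and 5.33 ± 0.14 at 15 days (SD, n = 3 each), and no further step was called. Of the 213, 18 (8.45%) were followed by the next listed ID of the same set, where 1.26% of tested genes belong to it. The order of IDs is not taken as a position in the genome.

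APZ42_017201 had 33.9, 51.0 and 3.76 CPM in males of 10 days, and 2.35, 0.988 and 0.517 CPM in males of 8 days. The third 10-day library was far below the rest of its age and still above all 8-day libraries. The gene rose by 4.34 ± 0.897 (edgeR adjusted p = 0.0374), a call that was lost without any 1 of the 8-day libraries and without any 1 of 10-day replicates 1 and 2, 15-day replicate 1 and 18-day replicate 1. APZ42_021061 had 56.2, 79.4 and 34.8 CPM in males of 10 days, and 7.48, 3.49 and 2.93 CPM in males of 8 days. It rose by 3.56 ± 0.460 (edgeR adjusted p = 0.00256) and kept its call without each single library.

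In the other direction, APZ42_030566 had 5.37, 6.37 and 5.69 CPM in males of 10 days, and 15.9, 14.1 and 12.2 CPM in males of 8 days. It fell by 1.30 ± 0.241 (edgeR adjusted p = 0.0206), without overlap, and its call was lost without any single library of either age. APZ42_028735, described above, was the largest fall here too. The 9 genes that fell at 10 days were all lower in males than in females of 20 to 40 days by sign, 8 of them (88.9%) past the threshold, as were 33% of the genes tested in both.

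The calls at 10 days also rested on the scaling. With spike-in library sizes, added after seeing the data, the median of all genes lay at -0.817, against -0.0242 with TMM sizes, no gene was called and all 222 kept their sign. Without the libraries rich in the abundant genes, an alternative that leaves 1 library of 8 days, assumed to vary like the other ages, 0 were called. The count was 100 and 119 without 10-day replicates 1 and 2, 106, 79 and 68 without 8-day replicates 1, 2 and 3, and 433 without 18-day replicate 3.

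The later males, 25 libraries of 20 to 40 days that the young-male comparison did not use, followed these genes on. Along that span 338 of 18271 genes (1.85%) had a rising slope with age and 359 (1.96%) a falling one in edgeR. Of the 43 genes that rose in young males, 15 (34.9%) rose further and 0 fell, where 2.05% and 2.23% of the genes tested in both did. Of the 207 that fell, 45 (21.7%) fell further and 0 rose. By sign alone, 37 of the 43 had a positive slope and 196 of the 207 a negative one. The median slope was 0.227 and -0.261 on the log2 scale per 10 days, against 0.00271 over all genes.

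The median level over the genes that rose lay between 5.63 and 6.26 log2 CPM in each later male library, above the 5.59 mean of 15 days. That of the genes that fell lay between 2.48 and 3.76, below the 8-day libraries in all 25, but it did not fall steadily from 18 days. It was 3.31 ± 0.14 at 18 days, 3.58 ± 0.23 at 23 days and 3.22 ± 0.063 at 28 days. At 30 days it was 3.65 ± 0.074, and at 40 days 2.98 ± 0.056 (mean ± SD of 3 libraries each). The genes that rose at 10 days varied more between later libraries: their median level ranged over 3.14 to 6.57 log2 CPM in the later males, and 2 of the 25 libraries, both of 28 days, were at or below the highest 8-day value. Of these 213 genes, 14 (6.57%) rose with a called slope and 0 fell, where 1.95% and 2.1% of the genes tested in both did. By sign 209 of the 213 slopes were positive, with a median of 0.556 per 10 days. The slope calls moved with single libraries, to 331 without 20-day replicate 2, 427 and 451 without 23-day replicates 1 and 3, 1066 without 33-day replicate 3, 405 without 38-day replicate 3 and 441 without 40-day replicate 3. Of the 25 libraries, 33-day replicate 3 was the shallowest, at 1599627 gene counts, and it gave the lowest level of the falling genes, 2.48.

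The IDs named for the largest called slopes at 3 log2 CPM or more were not called in young males. APZ42_020015 rose by 2.12 ± 0.278 per 10 days (edgeR adjusted p = 7.27e-05), and in young males it had 6.37, 7.52 and 19.3 CPM (lowest, median, highest) at 15 and 18 days, and 5.53, 8.03 and 11 CPM at 8 and 10 days. APZ42_016145 fell by 1.11 ± 0.318 per 10 days (adjusted p = 0.0481 in edgeR), as did the next listed ID APZ42_016144, by 1.06 ± 0.289 (adjusted p = 0.0375 in edgeR). In young males APZ42_016145 had 10, 69.1 and 161 CPM at 15 and 18 days, and 23.9, 111 and 178 CPM at 8 and 10 days, a wide spread with overlap. The slope call was lost in 16 of 28 refits for APZ42_016145 and in 12 of 28 for APZ42_016144, with no change of sign. The pair had nearly the same counts in most libraries, such as 17952 for APZ42_016144 and 17640 for APZ42_016145 in 15-day female replicate 1. In 38-day male replicate 3 they had 101 and 53. How reads that match both IDs were counted is not stated, so they are given as 1 uncertain observation.

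**Figure D4:**
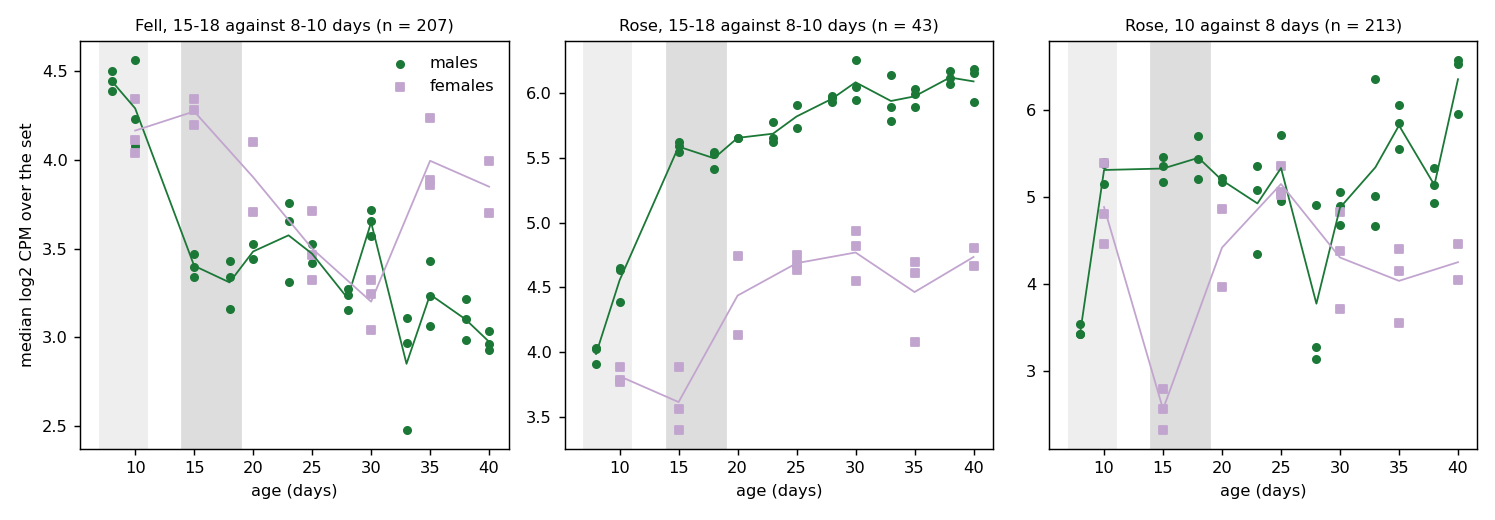
Median log2 CPM (y) of the genes that fell (left) or rose (middle) at 15 and 18 against 8 and 10 days and of those that rose at 10 against 8 days (right), by age in days (x), 1 point per library, lines through the means, and grey bands over the 2 male age groups. The left and middle sets separate the male age groups in every library because they were chosen to; in later males they stay at 2.48 to 3.76 and at 5.63 to 6.26.

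A sex difference measured in other libraries gave the genes a property that the IDs lack. At 20 to 40 days, 5348 of 16325 genes (32.8%) were higher in males and 5440 (33.3%) higher in females (edgeR, age as covariate), and at least 4-fold so were 1073 (6.57%) and 592 (3.63%). Of the 43 genes that rose in young males, 33 (76.7%) were higher in later males and 5 (11.6%) lower, and 15 (34.9%) were at least 4-fold higher. Of the 206 falling genes with a value, 65 (31.6%) were higher in later males and 100 (48.5%) lower. The falling genes held strongly biased genes of both kinds, 31 (15.0%) at least 4-fold higher in later males and 19 (9.22%) at least 4-fold lower. Of the genes that rose at 10 days, 107 of 213 (50.2%) were higher in later males and 42 (19.7%) lower, and at least 4-fold so were 54 (25.4%) and 8 (3.76%).

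The 15 rising genes of strong male bias stood at 4.17 ± 0.22 log2 CPM in males of 8 days, 5.18 ± 0.19 at 10 days, 5.74 ± 0.018 at 15 days and 6.0 ± 0.22 at 18 days (mean ± SD of 3 libraries). They reached 7.24 ± 0.097 in males of 40 days, and 7 of the 15 had a called rising slope there. In females of 15 and 10 days they stood at 2.02 ± 0.091 and 2.83 ± 0.40 log2 CPM.

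The 31 falling genes of strong male bias lay lower at 15 and 18 days than at 8 and 10 days. They stood at 3.98 ± 0.14 log2 CPM in males of 8 days, 4.25 ± 0.34 at 10 days, 2.85 ± 0.060 at 15 days and 2.50 ± 0.33 at 18 days (mean ± SD of 3 libraries). Their changes between 15 and 18 days and 8 and 10 days ranged from -1.80 to -0.976, and in later males all 31 had a negative slope, 3 of them called. In females they were barely detected, at -1.30 ± 0.20 log2 CPM at 15 days and -1.46 ± 0.27 at 10 days. APZ42_023969 is one of them.

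The 19 falling genes of strong female bias stood at 4.31 ± 0.099 log2 CPM in males of 8 days, 4.20 ± 0.25 at 10 days, 3.20 ± 0.30 at 15 days and 3.17 ± 0.42 at 18 days, and at 6.28 ± 0.13 in females of 15 days. Over the whole list of genes at least 4-fold higher in females, 453 were tested in the young males, 0 rose and 19 fell (4.19%), with a median change of -0.32. In 1047 genes of the male list 15 rose (1.43%) and 31 fell (2.96%), with a median of 0.15. Over all genes 0.273% rose and 1.32% fell, with a median of 0.04. By spike-in library sizes the male list's median turned to -0.0153, with all genes at -0.112, and the female list's was -0.397.

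Both lists also serve as a check of the labelled sex. The 592 genes of the female list summed to 15210 to 28990 CPM in males of 15 and 18 days and to 18249 to 33653 CPM in males of 8 and 10 days, against at least 179887 CPM in every female library of 10 and 15 days. The 1073 genes of the male list summed to 54170 to 91053 CPM in males of 15 and 18 days and to 39694 to 61044 CPM in males of 8 and 10 days. In bulk samples of whole animals, fewer cells of a type and less RNA per cell cannot be told apart.

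**Figure D5:**
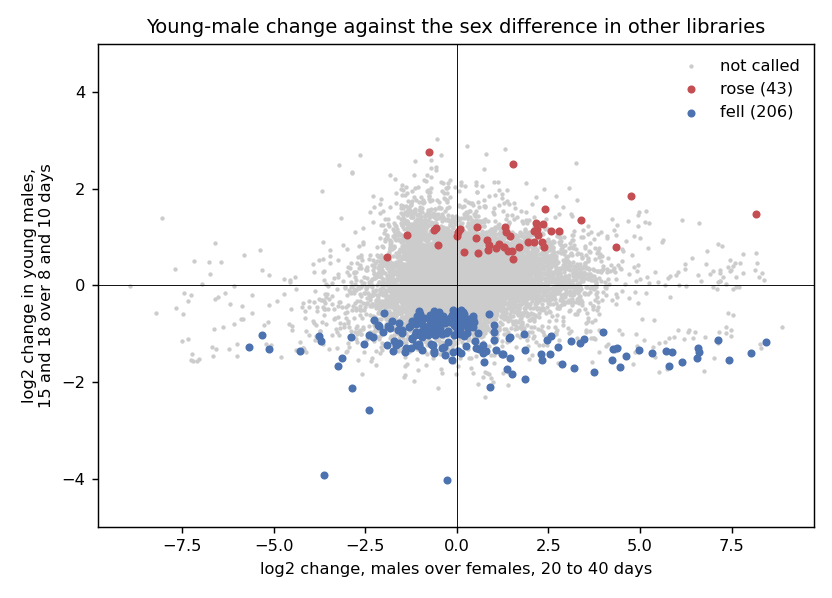
Change in young males (y, log2, 15 and 18 over 8 and 10 days) against the sex difference in libraries of 20 to 40 days (x, log2, males over females), 1 point per gene. Of the 43 rising genes 33 were higher in later males, while the falling genes include 31 with a male bias of at least 4-fold and 19 with a female bias of that size.

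Females of 15 against 10 days show the same span in the other sex, in 6 libraries that the male comparison did not use. In them 1091 of 15283 genes rose (7.14%) and 1709 fell (11.2%) in edgeR. Of the 188 genes that fell in young males and could be tested, 16 (8.51%) rose and 19 (10.1%) fell in females, shares near the 7.29% and 11.4% of all genes tested in both. Of the 43 that rose, 5 (11.6%) rose and 3 (6.98%) fell. These shares speak of 10 to 15 days only. The level of the falling genes in females was 4.27 ± 0.072 log2 CPM at 15 days, 3.5 ± 0.19 at 25 days and 4 ± 0.21 at 35 days. That of the rising genes was 3.61 ± 0.25, 4.69 ± 0.057 and 4.46 ± 0.33 at the same ages (SD, n = 3 each). Changes of these sets between later female ages were not tested. The female counts were 1723 without 10-day replicate 2, and 1604 and 1256 without 15-day replicates 1 and 3.

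Most genes that rose in males at 10 days fell in females from 10 to 15 days. Of the 212 tested, 0 rose and 164 (77.4%) fell, against 11.2% of all genes. Their median level was 2.57 ± 0.24 log2 CPM in females of 15 days and 4.88 ± 0.47 in females of 10 days (SD, n = 3 each), and 51 of the 54 with strong male bias fell. The whole male list moved in the same way: of 735 tested genes 5 rose and 410 (55.8%) fell, with a median of -1.60. The 1073 genes summed to 5218 to 5728 CPM in females of 15 days and to 10384 to 14823 CPM in females of 10 days. In females of 15 days 85 of the 1073 were at 0 in all 3 libraries, and in females of 10 days 22 were. The part of this higher level at 10 days in the female comparison was not tested. The genes that rose in males at 10 days did not stay low in females. Their median level was 4.42 ± 0.63 log2 CPM at 20 days (SD, n = 2) and 5.15 ± 0.18 at 25 days (SD, n = 3). The 54 with strong male bias stood in females at 4.13 log2 CPM at 10 days, -0.934 at 15 days and 2.36 at 20 days.

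A pair of IDs from the male list, at least 4-fold higher in later males, was at 0 counts in all 3 females of 15 days. APZ42_030567 had 30.2, 17.4 and 23.3 CPM in females of 10 days, and their mean of 23.6 CPM was at least 174-fold higher than in females of 15 days, taking a floor of 3 counts per library there. APZ42_017646 had 23.7, 20.2 and 7.62 CPM in females of 10 days, and their mean of 17.2 CPM was at least 127-fold higher by the same floor. Neither stayed at 0 in later females. There APZ42_030567 had 0.0509 ± 0.0882 CPM at 25 days and 28.7 ± 30.2 CPM at 30 days (SD, n = 3 each). APZ42_017646 had 4.38 ± 3.03 CPM at 25 days and 5.32 ± 9.21 CPM at 30 days (SD, n = 3 each). In males APZ42_030567 had 119, 72.9 and 63.2 CPM at 15 days, and 104, 139 and 78.5 CPM at 10 days, with no called change. APZ42_017646 had 5.10, 3.90 and 5.35 CPM in males of 8 days, 18.5, 26.5 and 27.6 CPM at 10 days and 20.5, 39.7 and 17.3 CPM at 15 days. It rose by 2.33 ± 0.43 at 10 against 8 days (edgeR adjusted p = 0.0206). Among called IDs of at least 3 log2 CPM whose groups do not overlap, APZ42_021058 had the largest female rise. It had 27.4, 61.4 and 40.0 CPM at 15 days and 0.150, 3.40 and 4.98 CPM at 10 days, while the male libraries of 10 and 15 days overlapped.

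The difference between the sexes in the change from 10 to 15 days was tested itself. It was higher in males for 805 of 16962 genes (4.75%) and lower for 291 (1.72%), with 717 and 721 calls in all without 15-day female replicates 1 and 3. This test shares the 10- and 15-day males with the young-male comparison, so its values for those genes stand only side by side. Of the 207 genes that fell in young males, 73 were lower in males by this test and 2 higher, and of the 213 that rose at 10 days, 134 were higher and 0 lower.

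Among called IDs of at least 3 log2 CPM, those with the largest lower difference had lower values at 15 than at 10 days in males and higher ones in females, though not each arm was called alone. APZ42_022996 had 15.1, 22.5 and 15.5 CPM in males of 15 days and 31.0, 47.3 and 37.4 CPM in males of 10 days, and in females 1.54, 1.39 and 1.14 CPM at 15 days and 0.150, 0.717 and 0.743 CPM at 10 days. The difference was -2.52 ± 0.526 (edgeR adjusted p = 0.0134), and the fall between the pooled male age groups was 1.30 ± 0.18 (edgeR adjusted p = 0.00399). Its change was not called in females (1.36 ± 0.55, edgeR adjusted p = 0.132) or in males at 15 against 10 days alone (-1.09 ± 0.24, adjusted p = 0.36). APZ42_023594 had 8.78, 4.94 and 7.58 CPM in males of 15 days and 10.2, 12.4 and 9.88 CPM in males of 10 days, and in females 37.5, 50.1 and 61.3 CPM at 15 days and 12.5, 15.3 and 13.4 CPM at 10 days. The difference was -2.48 ± 0.312 (edgeR adjusted p = 0.000524), and the female rise alone was 1.85 ± 0.19 (edgeR adjusted p = 0.00141). In males the change was not called (-0.591 ± 0.31 at 15 against 10 days, edgeR adjusted p = 0.999).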

How the data were processed

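RNA of whole animals was sequenced as paired 100-base reads from mRNA libraries, per the labels' protocols. The deposited table holds raw read counts per gene, as whole numbers. The submitters' processing notes name TopHat2 2.1.1 and DESeq2 1.20; for the counting tool, its strand setting and the genome build, nothing was given in the sources used here. The table has 80 columns, of which 3 belong to samples of 20 and 25 days that the labels' notes mark as mislabelled and excluded, and these were not used. The 7 spike-in rows were dropped from library sizes, and the 2 technical runs of the third 10-day male were summed. The authors' tables of comparisons were not used.

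Counts of 26646 IDs were analysed in R 4.3.3 with edgeR 4.0.16 (filterByExpr, TMM, quasi-likelihood F-test, Benjamini-Hochberg, adjusted p under 0.05). CPM use TMM sizes over all 76 libraries, log2 CPM a prior count of 2, and SE is the change over the root of F. Alternatives used DESeq2 1.42.0 and limma 3.58.1. Counts give a precision set by depth, with 8974138 counts in the shallowest young male and 1599627 in the shallowest male of 20 to 40 days. Named IDs are at most 2 rising and 2 falling per comparison, with the largest called change, at least 3 log2 CPM and, between 2 groups, no overlap. The members, lists and tests were chosen with earlier results of these data known. The fits were tested on simulated data.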

Additional observations from a re-analysis of the deposited data

Results flagged for a closer look

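The values below stood apart from the other 5 of their group by Dixon's criterion, among 20 groups of 6 tested. Chance marks about 1 in 20 such groups. APZ42_023264 had 94.0 CPM in 18-day replicate 3, where the other males of 15 and 18 days had 40.4 to 57.0 CPM. APZ42_028735 had 19.5 CPM in 15-day replicate 3, where the others had 6.18 to 10.6 CPM. The abundant genes took 47.4% of gene counts in 15-day replicate 2, against 1.12% to 13.1% in the others.

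The IDs below had a change from 10 to 15 days that differed between the sexes by the interaction test, given as the male minus the female change on the log2 scale. It was 11.8 for APZ42_030567 and 11.8 for APZ42_017646. Since both were at 0 in the 15-day females, the fitted size depends on the default prior count of edgeR's fit, not on the 2 used for log2 CPM. It was -2.52 for APZ42_022996 and -2.48 for APZ42_023594.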

How the results depend on the processing

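The 250 calls of the pooled comparison became 0 at 15 against 10 days alone, 140 at 18 against 8 days alone, 506 with age as a number, 729 in DESeq2, 2068 in limma-voom with quality weights (867 up and 1201 down) and 105 with log2 library size as a covariate. They became 79 with the replicate block, although same-numbered libraries share only a number (deviations of 18 such pairs correlated at -0.483 to 0.271, 8 of them over 0.1), 7 when the spike-in cluster was a term of the fit, 0 with spike-in library sizes and 0 within the low-ratio spike-in cluster. With alternatives chosen after seeing the data they were 623 with 1 mean per age, where the ages no longer add to the spread, and 14 without libraries over 30% abundant genes. Leaving out 1 library gave 59 to 545. The 222 calls at 10 against 8 days became 460 in DESeq2 and, by alternatives chosen after seeing the data, 0 with spike-in library sizes and 0 without libraries over 30% abundant genes; leaving out 1 library gave 68 to 433. DESeq2 called 68 at 15 against 10 days and 14 at 18 against 15 days, where edgeR called 0; leaving out 1 library gave 0 to 13 and 0 to 0. The female comparison gave 1256 to 2405 with 1 library out. The sex difference gave 1773 in DESeq2 and 717 to 1152 with 1 library out. The slope of later males gave 1501 in DESeq2, 443 with the replicate block and 331 to 1066 with 1 library out. Apart from the constructions named, the cause was not tested. With the sex lists at a 2-fold bias, 1.76% of the male list fell and 1.06% rose, and 2.76% of the female list fell and 0.108% rose; chosen at 30 to 40 days, 3.11%, 1.46%, 4.43% and 0.222% did. Over 426 refits of named IDs, 335 kept the call, 91 lost it and 0 turned sign. All other counts stayed within 1.5 times. Leaving out the shallowest libraries gave no value, since 0 young male libraries were under the depth limit set for it.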
